A study of Mus musculus with 36 samples.

Results

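The lungs described here came from C3H mice given NNK, a nitrosamine carcinogen of tobacco smoke, and were excised 3, 6, 9 or 12 weeks after exposure. The dose was 100 mg/kg, injected once a week over 4 weeks. These lungs make up 8 of the 36 arrays of the series, 2 at each week, and were chosen by strain and treatment alone. The groups they were set against were untreated C3H lungs of weeks 3, 6, 9 and 12 (8 arrays) and of week 0 (2 arrays), and NNK-treated A/J lungs of weeks 3, 6, 9 and 12 (8 arrays, same dosing). Each array measured total RNA of lung on an Affymetrix Mouse Gene 1.0 ST chip. The age and sex of the mice, and whether paired arrays of a group are separate animals, are not stated in the labels. Every p below therefore measures the spread between arrays, which may be technical.

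The question asked of these 8 arrays was which genes moved steadily with the weeks after NNK, and which of those moved in the same way in untreated C3H lungs of the same weeks. NNK is activated in lung cells to products that alkylate DNA. Damaged cells engage p53, a transcription factor that switches on genes of cell cycle arrest, repair and cell death, and injured tissue makes acute-phase proteins, recruits macrophages and lays down matrix. C3H mice yield fewer lung tumours after such carcinogens than A/J mice, a strain known for a high yield.

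A level below is log2(intensity + 16) of a gene on 1 array after quantile normalization. A trend is the log2 change over the 9 weeks between week 3 and week 12 along a straight line through the week means, with its standard error (SE). A gene was called where its adjusted p in limma was under 0.05 over the 14953 genes tested. In bulk lung, fewer cells of a type and less RNA per cell cannot be told apart.

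The 8 arrays held lung. Sftpc, the surfactant protein C gene of alveolar type 2 cells, lay between 13.90 and 14.05 on the NNK-treated arrays and between 13.95 and 14.05 on the untreated ones. The club cell gene Scgb1a1 lay between 13.65 and 13.81 with NNK, against 13.67 to 13.95 untreated. The cornified skin gene Lor did not exceed 7.17 with NNK or 7.26 untreated, while cardiac Myl7 lay at 9.96 to 10.71 with NNK and at 9.43 to 11.10 untreated. The week 3 NNK pair stood apart before any test: 59 genes differed by more than 2-fold between its arrays, 58 of them higher on array 1, against 4 to 20 genes in the other 8 C3H pairs. Counts or medians without array 1 of week 3 are therefore also given for many of the lists described, and single arrays limit the counts of all lists.

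Over the weeks after NNK, 170 of 14953 genes moved (1.14%): 54 rose (0.361%) and 116 fell (0.776%). The median size among the 170 was 0.48 on the log2 scale, and 63 moved by at least 1.5-fold. The median trend over all genes was 0.02 with NNK and -0.01 untreated. In untreated C3H lungs of the same weeks 18 genes moved (0.12%), 3 upward (0.0201%) and 15 downward (0.1%). At an unadjusted p under 0.05 the numbers lay close together, 2508 genes with NNK and 2274 untreated.

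Of the 170 called genes, 161 had a trend of the same sign in untreated C3H lungs. A gene was set aside where that untreated trend also had an unadjusted p under 0.05, which removed 108 genes (0.722%), 18 rises (0.12%) and 90 falls (0.602%). The 62 genes left (0.415% of genes tested) were 36 rises (0.241%) and 26 falls (0.174%). Of these, 53 had an untreated trend of the same sign. The last genes to be set aside were Xpnpep2, Eln and Cpa3, with unadjusted limma p-values of 0.0443, 0.0433 and 0.0415 for the untreated trend, and the first ones kept were Nr3c2, Slc20a1 and Sprr1a, with p-values of 0.0504, 0.0528 and 0.0644. Across all 14953 genes the NNK and untreated trends correlated with Pearson r = 0.37 and Spearman rho = 0.31, a description across genes that are not independent replicates.

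**Figure D1:**
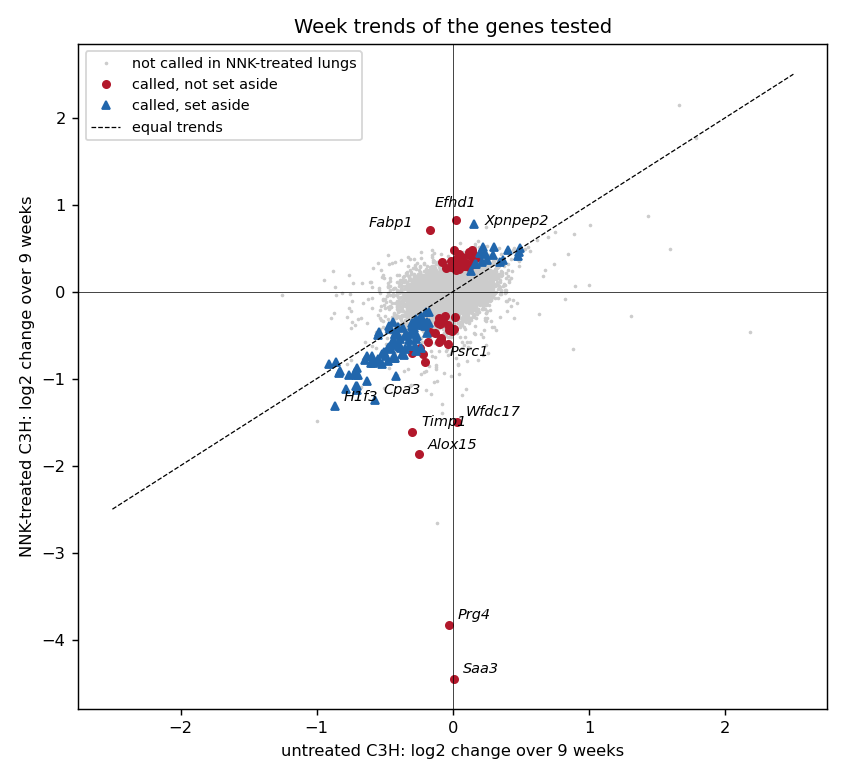
Trend over 9 weeks in NNK-treated C3H lungs (vertical axis) against the trend in untreated C3H lungs (horizontal axis), both as log2 change, 1 point per gene tested. The 108 genes set aside lie toward the dashed line of equal trends, and the 62 kept genes lie near an untreated trend of 0, with Saa3 at -4.45 and Prg4 at -3.83 far below the rest.

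The count of 170 depended on single arrays. A fit without 1 array leaves 1 array in that group, so its p-values take in no spread of that group. Without array 1 of week 3, 38 genes were called (0.254%), 4 rises (0.0268%) and 34 falls (0.227%). Of these, 34 were among the 170 (0.227%), 4 rises (0.0268%) and 30 falls (0.201%). Of the 62 genes not set aside, 8 were still called (0.0535%), 1 rise (0.00669%) and 7 falls (0.0468%). The count was 759 without array 2 of week 3. It was 92 and 106 without array 1 or array 2 of week 6, 299 and 109 without those of week 9, and 20 and 51 without those of week 12. In all 8 such fits 9 genes passed, namely Saa3, Prg4, Psrc1, Cks2, H2bc1, H2bc8, H2bc9, H2bc14 and Xpnpep2. A single gene rose among these, Xpnpep2, and 3 of the 9 (Saa3, Prg4 and Psrc1) were not set aside. A fit to the 8 NNK-treated arrays by themselves called 11 genes.

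**Figure D2:**
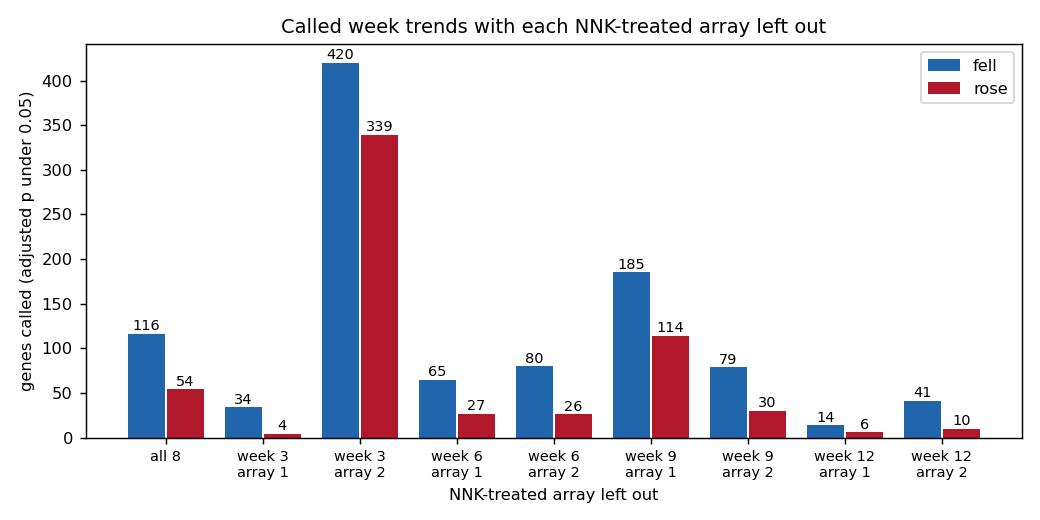
Number of genes with a called week trend in NNK-treated C3H lungs (vertical axis, bars from 0) with all 8 arrays and with each array left out (horizontal axis). Falls are drawn left of rises; the totals run from 20 without array 1 of week 12 to 759 without array 2 of week 3.

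The largest changes were falls after week 3, led by Saa3 and Prg4. Saa3 (probe set 10563597), which encodes serum amyloid A3, an acute-phase protein made in inflamed tissue, stood at 13.33 and 11.76 on the week 3 NNK arrays, 7.84 and 7.82 at week 6, 7.78 and 7.59 at week 9, and 7.66 and 7.64 at week 12. Its untreated levels of weeks 3 to 12 lay between 7.50 and 8.34. Both week 3 NNK arrays were thus far above all others, array 1 the more so, and the later NNK arrays lay within the untreated range. The trend was -4.45 ± 0.32 (SE) with NNK, against 0.00 untreated (adjusted p = 2.81e-05 for the NNK trend).

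Prg4 (10358476), the gene of the joint and serosal lubricant lubricin, had the same shape. It reached 12.52 and 9.67 at week 3 with NNK, then 6.84 and 6.61 at week 6, 6.99 and 6.90 at week 9, and 6.91 and 6.63 at week 12, against 6.36 to 6.82 in untreated lungs. The trend was -3.83 ± 0.53 with NNK (adjusted p = 0.00615). Without array 1 of week 3, Saa3 still fell by 3.74 and Prg4 fell by 2.55, so the high values were not limited to 1 array. That fit holds 1 array at week 3 and so has no measure of the spread there.

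A further group of week 3 genes was high on array 1 and raised by less on array 2. Alox15 (10387855), a lipoxygenase of macrophages and eosinophils, was at 11.79 and 9.54 at week 3 and between 8.23 and 8.73 on the 6 later NNK arrays, against 8.16 to 8.50 untreated. Timp1 (10598976), an inhibitor of matrix metalloproteinases, was at 10.84 and 9.24 and then between 8.14 and 8.47, against 8.18 to 8.65 untreated. Wfdc17 (10379727), a small secreted protein gene of activated macrophages, was at 12.13 and 10.74 and then between 9.69 and 10.01, against 9.84 to 10.27 untreated. In all 3 genes the week 3 NNK arrays lay above every other C3H array of weeks 3 to 12, and the ranges of the later NNK arrays and the untreated arrays overlapped.

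These 3 trends were -1.87 ± 0.42 for Alox15, -1.61 ± 0.30 for Timp1 and -1.49 ± 0.27 for Wfdc17 (adjusted p = 0.0499, 0.0225 and 0.0186). Without array 1 of week 3 the sizes were smaller, at -0.85, -0.89 and -0.87. Alox15 lost its call without any 1 of the 6 arrays of weeks 6 to 12 (adjusted p up to 0.166), and Timp1 and Wfdc17 lost theirs without either array of week 12 (up to 0.142 and 0.0994). Arg1, the arginase gene that marks alternatively activated macrophages, had 12.24 and 8.71 at week 3 and 7.51 to 7.78 later, against 7.46 to 7.70 untreated. Its trend of -2.65 ± 0.64 did not pass with all arrays (adjusted p = 0.0611) and was -1.07 without array 1 of week 3. On weeks 6, 9 and 12 alone, 2 genes were called, Gdpd1 and Peg3, with trends of -0.65 and -0.72, and none of Saa3, Prg4, Alox15, Timp1, Wfdc17 and Arg1 was among them.

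**Figure D3:**
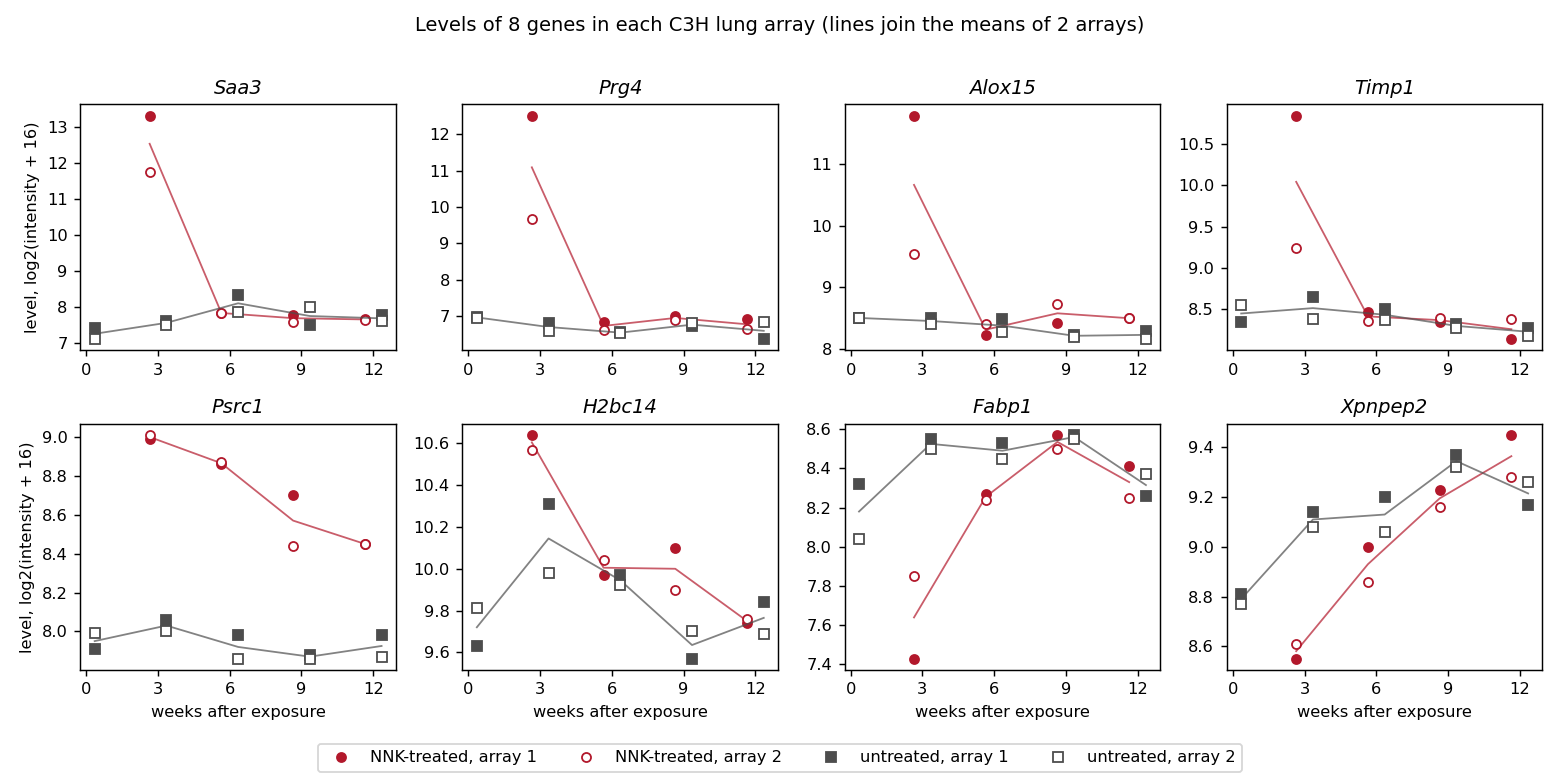
Level of 8 genes (vertical axes, log2 scale) by weeks after exposure (horizontal axes) on each NNK-treated (circles, left) and untreated (squares, right) C3H array, with filled symbols for array 1 and open ones for array 2. Saa3, Prg4, Alox15 and Timp1 drop after week 3 to or near the untreated range, Psrc1 stays above its untreated levels at all 4 weeks, and Fabp1 climbs to its untreated levels and Xpnpep2 to above both untreated arrays at week 12.

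Array 1 of week 3 differed most from array 2 in Arg1, Prg4, Alox15 and Wt1 and in F5, Rpp25, Itgam, C3ar1 and a pair of immunoglobulin kappa variable segments. Wt1, a transcription factor of mesothelium, the lining of the lung surface, was at 10.74 on array 1 and 8.84 on array 2, against 8.36 to 8.69 on the later NNK arrays. Itgam, an integrin of macrophages and neutrophils, was at 11.60 on array 1 and 9.77 on array 2, and C3ar1, a complement receptor, at 11.83 and 10.14. Coagulation factor gene F5 was at 10.58 and 8.67. None of Wt1, Itgam, C3ar1 and F5 had a called trend (adjusted p = 0.122, 0.0786, 0.122 and 0.108).

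Several lists were highest on this array. Over the 20 mesothelial genes tested, the mean level was 10.79 and 10.02 on the week 3 NNK arrays, 9.81 to 9.99 on the later NNK arrays and 9.66 to 9.92 on untreated arrays of weeks 3 to 12. Of these genes 1 fell (Prg4) and 0 rose, against 0.776% and 0.361% of all genes tested. A negative trend was seen in 14, with a median of -0.25 with NNK and 0.09 untreated. The median was 0.06 without array 1 of week 3. The defining mesothelial genes Msln and Upk3b stood at 10.59 and 11.62 on array 1, against 10.04 and 10.77 on array 2 and up to 10.16 and 11.06 on the later NNK arrays. Whether extra mesothelial tissue contributed to the high levels on array 1 was not tested.

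For 17 complement genes the mean level was 11.12 and 10.55 on the week 3 NNK arrays, 10.34 to 10.54 on the later ones and 10.39 to 10.52 untreated. Among them 1 rose (Hc, the gene of complement C5) and 0 fell, against 0.361% and 0.776% of all genes tested. A negative trend was seen in 13, with a median of -0.32 with NNK and -0.01 untreated, and -0.08 without array 1. C1qb, a subunit of the first complement component made by macrophages, was at 12.19 and 11.40 at week 3 and 10.83 to 11.38 later (adjusted p = 0.0643). The 20 genes of alternatively activated macrophages had means of 9.92 and 9.51 at week 3, against 9.07 to 9.38 later and 9.12 to 9.41 untreated. Here 0 genes were called, 16 had a negative trend, and the median was -0.48 with NNK and -0.08 untreated, with -0.28 without array 1.

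Of 13 acute-phase genes 2 fell, Saa3 and Timp1, against 0.776% of all genes tested. Without array 1 of week 3 their trends were -3.74 and -0.89. The other 11 members did not pass. Steap4, an inflammation-induced metalloreductase gene, was at 10.15 and 8.93 at week 3 and 8.55 to 8.84 later (adjusted p = 0.0915), and Cfb, complement factor B, at 10.72 and 9.55 and then 9.28 to 9.56 (adjusted p = 0.198). The list's mean level was 10.89 and 10.35 at week 3 with NNK, against 9.85 to 10.04 on the later NNK arrays and 9.90 to 10.10 untreated. Its median trend was -0.04 with NNK, -0.00798 with NNK without array 1 of week 3, and -0.02 untreated.

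Neutrophil and mast cell genes each had 1 called member, a fall, of 15 and 8 tested, against falls in 0.776% of all genes tested. Retnlg, a resistin-like gene of neutrophils, had 10.71 and 10.40 at week 3 with NNK and 9.22 to 9.37 later, against 9.80 and 9.50 at week 3 and 8.55 to 9.25 later in untreated lungs. It fell by 1.09 with NNK (adjusted p = 0.00986) and was set aside for an untreated trend of -0.70. It lost its call without array 1 of week 3 or without either array of week 12 (adjusted p up to 0.0735). Of 15 neutrophil genes 1 fell, or 0 without array 1 of week 3, and the medians were -0.15 with NNK and -0.25 untreated. Cpa3, the mast cell carboxypeptidase gene, had 9.70 and 8.39 at week 3 and 7.56 to 7.98 later with NNK, against 8.28 and 8.18 at week 3 and 7.60 to 8.23 later untreated. It was the 1 called gene among 8 of mast cells and eosinophils, with trends of -1.24 with NNK (adjusted p = 0.0353) and -0.57 untreated, and was set aside. Its adjusted p ran up to 0.162 without 1 of 5 arrays of weeks 6 to 12. The median of these 8 genes with NNK was -0.31, and -0.073 without array 1 of week 3.

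**Figure D4:**
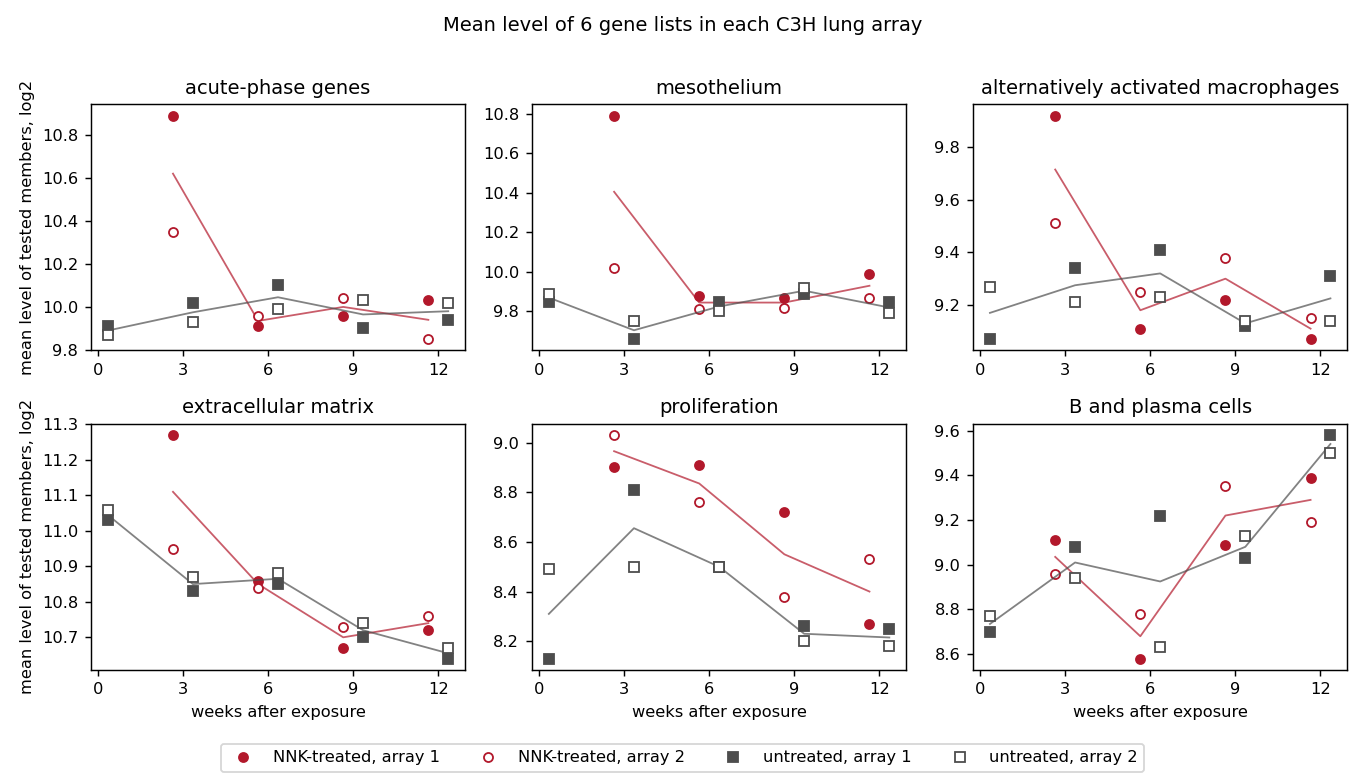
Mean level of the tested members of 6 gene lists (vertical axes, log2 scale) by weeks after exposure on each NNK-treated (circles, left) and untreated (squares, right) C3H array. Array 1 of week 3 is highest in the acute-phase, mesothelium, macrophage and matrix panels, with 10.79 for mesothelium, while over weeks 3 to 12 the proliferation means are highest at week 3 and lowest at week 12 in both groups. Lines join the means of 2 arrays.

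The p53 target Psrc1 declined over the weeks while staying above untreated lungs. Psrc1 (10495316), which encodes a microtubule-binding protein, had 8.99 and 9.01 at week 3, 8.86 and 8.87 at week 6, 8.70 and 8.44 at week 9, and 8.45 on both arrays of week 12. Untreated levels of weeks 3 to 12 lay between 7.86 and 8.06, so the groups did not overlap at any week. The gap to untreated lungs was 0.97 at week 3, 0.94 at week 6, 0.70 at week 9 and 0.53 at week 12. Its trend was -0.58 ± 0.07 with NNK (adjusted p = 0.00476), against -0.10 untreated, and it passed without each array (highest adjusted p = 0.043).

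Eda2r, a receptor of the tumour necrosis factor family that p53 induces, had 8.14 and 8.04 at week 3, 8.03 and 7.96 at week 6, 7.85 and 7.75 at week 9, and 7.63 and 7.72 at week 12. Untreated lungs were at 7.55 to 7.77, so the NNK arrays were above that range at weeks 3 and 6 and within it at week 12. Eda2r fell by 0.43 with NNK (adjusted p = 0.0182), against an untreated trend of 0.01, and lost its call without array 1 of week 3 or either array of week 12 (adjusted p up to 0.14). Ddit4l, an inhibitor of mTOR signalling, fell by 0.34 (adjusted p = 0.0495) and was set aside for an untreated trend of -0.19. Its call ended without 6 of the 8 arrays.

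In all, 3 of 39 tested p53 targets fell and 0 rose, against 0.776% and 0.361% of all genes tested, with a median trend of -0.07 with NNK and -0.06 untreated, and 1 of the 3, Psrc1, remained called without array 1 of week 3. The members next in line did not pass. Ccng1, the cyclin G1 gene, was at 12.33 and 12.32 at week 3 and at 12.20 and 12.06 at week 12, against 11.97 to 12.11 untreated (trend -0.22, adjusted p = 0.102). Phlda3, an inhibitor of Akt signalling, was at 10.60 and 10.73 at week 3 and 10.46 and 10.45 at week 12, against 10.34 to 10.51 untreated (trend -0.27, adjusted p = 0.0801). Dglucy, a D-glutamate cyclase gene, had a trend of -0.24 (adjusted p = 0.0509), Ei24 of -0.26 (adjusted p = 0.0611) and Aen, a nuclease gene, of -0.28 (adjusted p = 0.0623). A list of 12 genes was earlier called as differing between NNK-treated and untreated C3H lungs, a choice made on these same arrays. Of these, 2 fell over the weeks (Psrc1 and Ccna1) and 2 rose (Cracr2a and Hc), against 0.776% and 0.361% of all genes tested. The calls of Ccna1, Cracr2a and Hc depended on single arrays, array 1 of week 3 among them. Ccna1, the cyclin A1 gene, fell by 0.36 (adjusted p = 0.018) and lost its call without array 1 of week 3 or either array of week 12 (adjusted p up to 0.122).

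The 36 rises that were not set aside were low at week 3 with NNK. In 35 of them both week 3 NNK arrays lay below both untreated arrays of that week. Their median gap, NNK-treated minus untreated, was -0.26 at week 3, -0.05 at week 6, -0.02 at week 9 and 0.06 at week 12. In the 26 falls the median gap was 0.42 at week 3, 0.04 at week 6, 0.10 at week 9 and -0.02 at week 12, and in 25 both week 3 NNK arrays lay above both untreated ones. The genes were chosen for a trend with NNK and little trend without it, which fixes much of this shape, so the gaps are a description.

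**Figure D5:**
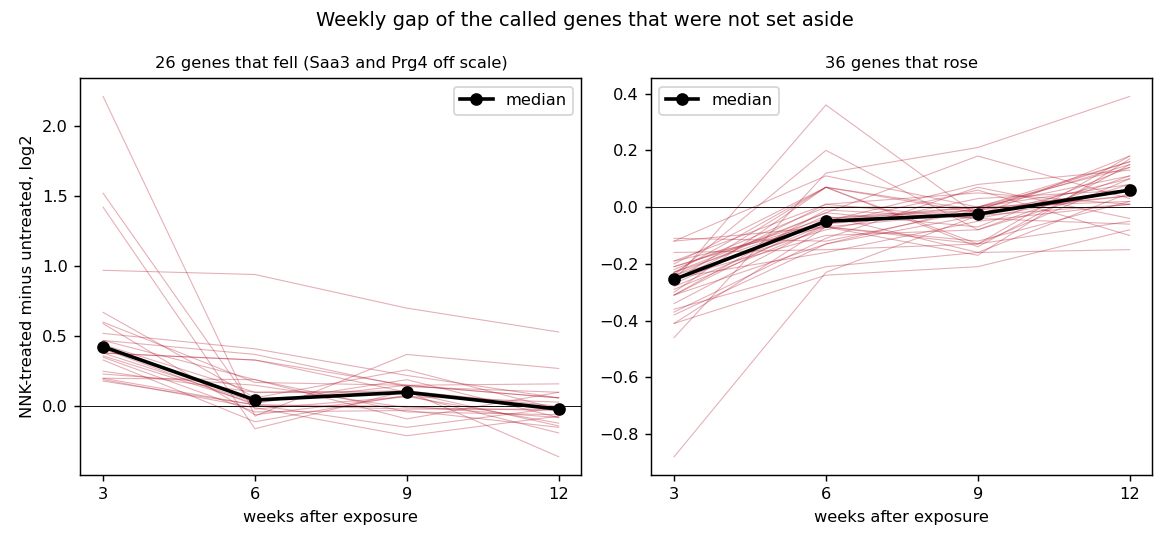
Mean of NNK-treated minus mean of untreated C3H arrays (vertical axes, log2) at each week (horizontal axes) for the genes with a called trend that were not set aside, with thin lines for genes and black lines for medians over all 26 falls and 36 rises (Saa3 and Prg4 lie off the scale). The medians are 0.42 and -0.26 at week 3 and -0.02 and 0.06 at week 12.

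Fabp1 (10538965), a fatty acid-binding protein gene also found in alveolar macrophages, had 7.43 and 7.85 at week 3 with NNK, 8.27 and 8.24 at week 6, 8.57 and 8.50 at week 9, and 8.41 and 8.25 at week 12. Untreated lungs had 8.26 to 8.57 over the same weeks. The week 3 NNK arrays were thus below every untreated array, and the arrays of weeks 9 and 12 lay in or next to the untreated range. Fabp1 rose by 0.70 ± 0.11 (adjusted p = 0.00986), against an untreated trend of -0.17, and missed the threshold without array 1 of week 3 (adjusted p = 0.0519) or array 1 of week 12 (0.0925). No other member passed among 21 alveolar macrophage genes, against rises in 0.361% and falls in 0.776% of all genes tested.

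Efhd1, a calcium-binding protein gene of mitochondria, had 8.17 and 8.65 at week 3, 8.46 and 8.40 at week 6, 9.25 and 8.99 at week 9, and 9.00 and 9.19 at week 12, against 8.25 to 8.96 untreated. The late NNK arrays of this gene passed the untreated range. It rose by 0.82 ± 0.15 (adjusted p = 0.0182), against an untreated trend of 0.02. Its call ended without array 1 of week 3 (trend 0.61, adjusted p = 0.14) or either array of week 12. Tmeff2, a membrane protein gene with follistatin-like domains, had 9.09 and 9.24 at week 3 and 9.57 and 9.63 at week 12, against 9.45 to 9.68 untreated, and rose by 0.48 (adjusted p = 0.00716). Coro6, of the actin-binding coronins, had 8.91 and 8.88 at week 3 and 9.36 and 9.48 at week 12, against 9.09 to 9.43 untreated, and rose by 0.48 (adjusted p = 0.00805).

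Other rises of this group took in signalling genes and vessel genes. Pde4a and Pde4b, phosphodiesterases that break down cyclic AMP, rose by 0.46 and 0.43. Flt1, a receptor for vascular endothelial growth factor, had 11.36 and 11.45 at week 3 and 11.81 and 11.85 at week 12, against 11.54 to 11.98 untreated, and rose by 0.40 (adjusted p = 0.0237). The endothelial lectin gene Clec4g rose by 0.44, the neurotrophic factor gene Gdnf by 0.40, Scel, a precursor of the cornified envelope, by 0.43, Erich3 by 0.44 and Cracr2a, a regulator of calcium channels, by 0.42. Of the 12 largest rises 1 (Coro6) kept its call without array 1 of week 3, 3 without array 1 of week 12 and 4 without array 2 of week 12.

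A further 6 genes completed the 12 largest falls that were not set aside. Mybl1, a transcription factor of the Myb family, had 7.81 and 8.03 at week 3, 7.96 and 7.79 at week 6, 7.77 and 7.30 at week 9, and 7.28 and 7.35 at week 12, against 7.14 to 7.54 untreated, and fell by 0.65 (adjusted p = 0.0292). H1f5, a linker histone, had 10.03 and 10.02 at week 3 and 9.20 to 9.47 later, against 9.05 to 9.52 untreated, and fell by 0.60 (adjusted p = 0.0183). Tubb6, a beta-tubulin, fell by 0.58, Sprr1a, a small proline-rich protein of stressed epithelium, by 0.71, and Gapt, an adaptor of immune cells, by 0.72. C1qtnf3, a secreted protein gene of the C1q family, fell by 0.80 (adjusted p = 0.0495). All 6 lost their calls without array 1 of week 3, and also without array 1 or array 2 of week 12 (highest adjusted p = 0.264 over these genes and arrays).

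Among the 108 genes set aside, the cell division genes formed the largest described list. Of 31 tested proliferation genes 15 fell, against 0.776% of all genes tested, 0 rose and all 31 had a negative trend. Each of the 15 was set aside because it also declined over weeks 3 to 12 in untreated C3H lungs. The median trend was -0.59 with NNK and -0.47 untreated. The mean level of the list was 8.90 and 9.03 at week 3, 8.91 and 8.76 at week 6, 8.72 and 8.38 at week 9, and 8.27 and 8.53 at week 12 with NNK. In untreated lungs it was 8.13 and 8.49 at week 0 and 8.81 and 8.50 at week 3. It was then 8.50 on both arrays of week 6, 8.26 and 8.20 at week 9, and 8.25 and 8.18 at week 12. The NNK arrays thus lay higher at each of weeks 3 to 12, with no overlap. All 31 genes had a negative trend over these weeks in untreated lungs too, while the untreated means of week 0 lay below those of week 3. The 15 calls became 3 without array 1 of week 3 and 10 without array 2 of it, 7 and 10 without array 1 or array 2 of week 6, 8 without array 2 of week 9, and 0 and 5 without array 1 or array 2 of week 12.

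Ccnb2, the cyclin B2 gene of mitotic entry, had 10.13 and 10.21 at week 3, 9.85 and 9.91 at week 6, 9.68 and 9.38 at week 9, and 9.14 and 9.38 at week 12 with NNK. Untreated lungs had 9.91 and 9.49, 9.38 and 9.38, 9.04 and 9.10, and 9.11 and 8.91 at the same weeks. It fell by 0.93 ± 0.13 with NNK (adjusted p = 0.00615), against an untreated trend of -0.72, and the difference of -0.21 between these trends did not pass (adjusted p = 0.758). Ube2c, a ubiquitin-conjugating enzyme of mitotic exit, fell by 1.13 with NNK, against -0.71 untreated, and Ect2, an exchange factor of cytokinesis, fell by 1.03, against -0.63. Ccna2, the cyclin A2 gene, fell by 0.91, against -0.83, and Cks2, a subunit of cyclin-dependent kinases, by 0.82, against -0.60. Ccnb2, Ube2c and Ect2 lost their calls without array 1 of week 12 (adjusted p = 0.0552, 0.0552 and 0.0823), and Ccna2 without that array or array 1 of week 3.

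Genes of the replication-dependent histone clusters fell as well. They were picked out after their values had been seen, and their probe sets may share sequence with near-identical paralogs, so the single genes are uncertain. Of 24 such genes tested 9 fell, against 0.776% of all genes tested, 0 rose and 23 had a negative trend, with a median of -0.43 with NNK, -0.21 untreated and 0.09 in NNK-treated A/J lungs. Of the 9 that fell, 7 were set aside and 4 still fell without array 1 of week 3. H2bc14 (10403943) had 10.64 and 10.57 at week 3, 9.97 and 10.04 at week 6, 10.10 and 9.90 at week 9, and 9.74 and 9.76 at week 12, against 10.31 and 9.98 at week 3 and 9.57 to 9.97 later in untreated lungs. The week 3 NNK arrays were the highest and the later ones overlapped the untreated arrays. H2bc14 fell by 0.77 (adjusted p = 0.00476), H2bc8 by 0.64 (adjusted p = 0.00512), H2bc1 by 0.63 (adjusted p = 0.000796) and H2bc9 by 0.51 (adjusted p = 0.00615).

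Promoters of some of these genes are shown with short elements that they share. All sequences are from RefSeq on GRCm38.p6, read 5′ to 3′ on the strand of the gene, and cover the 180 bases before the annotated start. In the first 4, all of histone H2B genes that fell, the capitals mark the octamer (ATTTGCAT, or ATGCAAAT on the other strand), the element of histone H2B promoters that octamer-binding factors recognise.
H2bc14, chr13:21721864-21722043, plus strand: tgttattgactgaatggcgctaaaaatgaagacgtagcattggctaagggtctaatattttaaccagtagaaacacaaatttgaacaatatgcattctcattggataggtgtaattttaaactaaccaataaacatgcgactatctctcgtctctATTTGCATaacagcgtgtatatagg
H2bc8, chr13:23571220-23571399, plus strand: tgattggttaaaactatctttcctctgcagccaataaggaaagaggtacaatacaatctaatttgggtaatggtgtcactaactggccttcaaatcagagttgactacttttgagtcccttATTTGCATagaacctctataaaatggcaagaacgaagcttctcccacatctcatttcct
H2bc18, chr3:96269520-96269699, plus strand: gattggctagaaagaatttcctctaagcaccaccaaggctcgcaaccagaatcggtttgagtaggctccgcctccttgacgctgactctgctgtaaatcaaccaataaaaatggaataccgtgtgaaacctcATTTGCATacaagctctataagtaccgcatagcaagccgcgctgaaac
H2bc1, chr13:23934157-23934336, minus strand: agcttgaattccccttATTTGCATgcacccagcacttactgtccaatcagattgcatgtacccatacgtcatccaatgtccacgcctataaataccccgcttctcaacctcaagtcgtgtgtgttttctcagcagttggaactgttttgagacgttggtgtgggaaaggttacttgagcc

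The octamer begins 25 bases before the start in H2bc14, 59 in H2bc8, 48 in H2bc18 and 164 in H2bc1. Within 250 bases before the start it was found in 4 of the 5 H2B genes that fell (80.0%; H2bc9 had none) and in 5 of all 9 cluster histone genes that fell (55.6%), against 1.6% of the 32851 promoter entries of the table. It was in 0 of 11 proliferation genes that fell and had an entry. In the next pair the capitals mark the CCAAT box (CCAAT, or ATTGG on the other strand), an element common in promoters of mitotic genes.
Ccnb2, chr9:70421555-70421734, minus strand: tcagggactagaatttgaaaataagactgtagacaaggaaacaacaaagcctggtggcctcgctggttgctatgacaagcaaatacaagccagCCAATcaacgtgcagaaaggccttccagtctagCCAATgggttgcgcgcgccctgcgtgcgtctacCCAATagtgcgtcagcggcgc
Ube2c, chr2:164769749-164769928, plus strand: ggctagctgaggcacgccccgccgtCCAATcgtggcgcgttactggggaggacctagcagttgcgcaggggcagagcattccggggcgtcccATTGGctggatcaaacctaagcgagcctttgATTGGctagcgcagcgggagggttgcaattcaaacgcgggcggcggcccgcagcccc

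Ccnb2 holds 3 CCAAT boxes in this window, beginning 87, 54 and 21 bases before the start, and Ube2c also 3, at 155, 88 and 57 bases. Over 250 bases a CCAAT box was found in 10 of 11 proliferation genes that fell (90.9%) and in 9 of 9 cluster histone genes that fell (100.0%), against 33.8% of all promoter entries. The cell cycle homology element, TTTGAA or TTCAAA on the other strand, was in 7 of the 11 proliferation genes (63.6%), against 16% of all entries. These are matches of letters on either strand in genes chosen by their trends, and no searched motif contains another. Members of these lists that did not fall were not searched as groups, and H2B promoters hold the octamer as a family. Whether an element has a part in the falls was not tested. A gene counted where any of its entries held the element, while the shares of all entries count each entry.

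Genes of the extracellular matrix were another list with many falls. Of 32 tested matrix genes 9 fell, against 0.776% of all genes tested, 0 rose and 28 had a negative trend, with a median of -0.32 with NNK and -0.15 untreated, and 8 of the 9 were set aside (Timp1 was not). Lum, the collagen-binding proteoglycan lumican, had 10.33 and 9.58 at week 3 and 8.53 to 9.09 later with NNK, against 9.14 and 9.20 at week 3 and 8.35 to 8.97 later untreated, and fell by 1.09 (adjusted p = 0.0116), against -0.71 untreated. Col5a2, a fibrillar collagen, fell by 0.59, against -0.45, and Loxl1, a crosslinking enzyme of elastic fibres, by 0.57, against -0.44. Mfap5, a microfibril protein, had 10.61 and 10.43 at week 3 and 9.95 and 9.87 at week 12 with NNK, against 10.54 and 10.30 and then 10.21 and 9.97 untreated, and fell by 0.61 (adjusted p = 0.00716), against -0.42. In the fit without array 1 of week 3, 3 matrix genes were called (Timp1, Col3a1 and Col5a2) and the median trend was -0.16. Most of the 9 falls lost their calls without array 1 of week 12, and likewise without array 2 of it.

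Xpnpep2 (10599463), a membrane-bound aminopeptidase gene, was the steadiest rise. It had 8.55 and 8.61 at week 3, 9.00 and 8.86 at week 6, 9.23 and 9.16 at week 9, and 9.45 and 9.28 at week 12 with NNK, each week above the one before on both arrays. Untreated lungs had 9.14 and 9.08, 9.20 and 9.06, 9.37 and 9.32, and 9.17 and 9.26 at these weeks, so the NNK arrays were below both untreated arrays at weeks 3, 6 and 9 and above both at week 12. Xpnpep2 rose by 0.78 ± 0.07 with NNK (adjusted p = 0.000226), against 0.16 untreated, and passed without each array in turn (highest adjusted p = 0.00336). It was set aside because the untreated trend had an unadjusted p of 0.0443. The difference of 0.63 between its trends did not pass (adjusted p = 0.161).

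Lymphocyte, vessel and alveolar genes mostly had small positive trends, of which few passed. Of 21 B and plasma cell genes 1 rose, against 0.361% of all genes tested. This was Cd22, a lectin of the B cell surface, and it was set aside, with trends of 0.45 with NNK (adjusted p = 0.0339) and 0.48 untreated. Cd22 lost its call without array 1 of week 3 (adjusted p = 0.184) and without 4 other arrays. The list's median was 0.443 with NNK and 0.485 untreated. All 22 T and NK cell genes had a positive trend, 0 were called, and the median was 0.234 with NNK and -0.07 untreated, and 0.155 with NNK without array 1 of week 3. Of 27 genes of blood endothelium 26 had a positive trend, with a median of 0.15 with NNK and -0.02 untreated. Of the 27, 2 rose, against 0.361% of all genes tested, namely Flt1 and Vwf, the von Willebrand factor gene (0.37 in both groups, set aside). Neither was called without array 1 of week 3 (adjusted p = 0.155 and 0.231), and the list median was then 0.0871. Tie1 and Tek, receptors of the angiopoietin system, had trends of 0.27 and 0.26 that did not pass (adjusted p = 0.0627 and 0.101).

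Of 24 alveolar type 2 cell genes 2 rose, against 0.361% of all genes tested. These were Hc, by 0.29, and Egfl6, a secreted growth factor-like gene, by 0.39 (adjusted p = 0.0322 and 0.0336). A positive trend was seen in 20, and the median was 0.0998 with NNK and 0.00 untreated. With array 1 of week 3 left out the median was 0.0527 and 17 of 24 trends were positive. Both calls ended without array 1 of week 3 (adjusted p = 0.181 and 0.179) and without 5 other arrays. Among 24 interferon response genes 0 were called and 20 had a positive trend, with a median of 0.17 with NNK and -0.02 untreated. Oas2, an antiviral synthetase gene, was closest, with 9.88 and 9.79 at week 3 and 10.15 and 10.35 at week 12 (adjusted p = 0.0556). Of 10 platelet genes 0 were called, with medians of 0.15 with NNK and 0.0709 untreated. Without array 1 of week 3 the NNK median was 0.0497, and 6 in place of 8 of the 10 trends were positive. In each of the remaining lists of cells and pathways, at most 1 member was called.

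Changes without a straight line were sought with an F test among the 4 NNK weeks. It called 522 genes (3.49%), of which 133 were also called by trend and 389 were not. Week 3 was the week farthest from the other 3 in 317 of the 522, with 141 genes higher and 176 lower there. Week 6 was farthest in 134, week 9 in 36 and week 12 in 35. Hpx, the gene of the heme-binding plasma protein hemopexin, had 7.54 and 7.58 at week 3, 7.70 and 7.63 at week 6, 8.25 and 8.17 at week 9, and 7.69 and 7.78 at week 12 (adjusted p = 0.0127). In untreated lungs week 9 was also its highest of weeks 3 to 12, at 8.01 and 8.08. Alb, the albumin gene and a marker of liver and plasma proteins, was also high at week 9 with NNK, at 11.66 and 11.42, against 7.63 to 10.05 at the other NNK weeks, and its part in the Hpx values was not tested. Neurl3, a ubiquitin ligase gene, was low at weeks 6 and 9, at 10.06 to 10.17, and higher at weeks 3 and 12, at 10.41 to 10.52, and untreated lungs of weeks 3 to 12 had their lowest values at week 6, 9.98 and 9.91. The F test called 21 genes without array 1 of week 3, without array 2 of it 1407, and without array 1 or array 2 of week 6 it called 52 and 63. It called 251 without array 2 of week 9, and 196 and 333 without array 1 or array 2 of week 12.

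Tested directly, the NNK trend differed from the untreated trend in 1 gene (0.00669%), Saa3, by -4.45 (adjusted p = 0.00213). At an unadjusted p under 0.05 there were 1232 genes. Without array 1 of week 3, which leaves 1 NNK array at that week, the differences of Saa3, Prg4 and Arg1 were -3.75, -2.52 and -0.95. Prg4 with all arrays had a difference of -3.80 that did not pass (adjusted p = 0.419). Of genes with opposite trends, Prf1, the perforin gene of cytotoxic lymphocytes, had 0.36 with NNK and -0.38 untreated, and C4b, of complement C4, -0.22 with NNK and 0.40 untreated (adjusted p = 0.419 for both differences). For 61 of the 62 genes kept, a trend with NNK and none called without it is not shown to be a difference between the groups.

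Set against NNK-treated A/J lungs, the C3H trends differed in genes of the circadian clock, 9 of 14 on its repressor and output side. The trend differed between the strains in 43 genes (0.288%), 14 with a more positive (0.0936%) and 29 with a more negative (0.194%) trend in C3H. In NNK-treated A/J lungs alone 484 genes moved (3.24%), 312 upward (2.09%) and the rest downward (1.15%). The clock output gene Hlf had a trend of 0.32 in C3H and 1.79 in A/J, a difference of -1.47 ± 0.13 (adjusted p = 1.26e-06). Dbp, of the same family of transcription factors, had 0.37 in C3H and 1.62 in A/J, the clock repressor gene Per3 0.22 and 1.18, and the cell cycle kinase gene Wee1 -0.18 and 0.73. Arntl, the activator that drives these genes, ran the other way, with -0.16 in C3H and -1.54 in A/J (difference 1.37, adjusted p = 0.00432). In NNK-treated C3H lungs the median trend was 0.227 for repressor and output genes (0.217 without array 1 of week 3). It was 0.188 in untreated C3H lungs and 1.21 in NNK-treated A/J lungs, and the trend of untreated A/J lungs was not tested. Of these 14 genes 1 rose, against 0.361% of all genes tested. This was Usp2 (set aside, trend 0.34 with NNK and 0.35 untreated). Its adjusted p of 0.0494 lay close to the threshold, and its call depended on single arrays, array 1 of week 3 among them. Of 5 genes listed on the side of Arntl (Arntl itself, Clock, Cry1, Nfil3 and Rora) 0 were called. Clock genes follow the hour of dissection, which is not given in the sources used here, and its part in this difference was not tested.

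Outside the clock, Gja5, the connexin 40 gene of arteries and heart, had a trend of 0.44 in C3H and -0.53 in A/J (difference 0.97, adjusted p = 0.00432). Akap12, a kinase anchoring protein gene, had 0.29 in C3H and -0.40 in A/J, and Ablim3, an actin-binding protein gene, 0.22 and -0.30. Of the 170 genes called in NNK-treated C3H lungs, 111 had a trend of the same sign in NNK-treated A/J lungs. Saa3 and Prg4 did not pass the test of the difference between strains, at -4.36 and -4.62 (adjusted p = 0.0835 and 0.0669). Psrc1 had negative trends in both strains, -0.58 in C3H and -0.40 in A/J, and this difference did not pass either (adjusted p = 0.763). Without array 1 of week 3 in C3H the count of 43 became 12 and without array 2 of it 267. It was 13 without array 2 of week 12 in C3H, and 85 and 27 without array 1 of week 6 or array 1 of week 12 in A/J.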

How the data were processed

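Per the submitters' processing notes, the authors summarised the arrays with PLIER in Affymetrix Expression Console and deposited linear intensities for each probe set on each array. Versions, background settings and the genome build are not given in the sources used here. Of 35556 probe sets, 21789 had 1 gene symbol, 1621 several and 12146 none in the probe table, and the probe set with the highest mean stood for each of 19938 genes. Values were turned to log2(intensity + 16), which understates changes of dim genes, and quantile-normalized over 36 arrays. Dim genes, with a mean level below the 25th percentile, were left out, and 14953 remained for testing.

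The C3H comparisons came from 1 limma fit (limma 3.58.1, R 4.3.3) with 9 group means over 18 C3H arrays and 9 residual degrees of freedom, moderated variances and Benjamini-Hochberg adjustment at 0.05. Trend weights were -0.9, -0.3, 0.3 and 0.9. The C3H minus A/J comparison used 18 group means over 36 arrays. Array medians of deposited intensity lay between 306 and 323 in NNK-treated C3H lungs. Arrays have no read depth, and 2 arrays per group limit precision. Array numbers 1 and 2 were not taken to pair the samples. In each C3H group the difference of array 1 minus array 2 was taken for each gene. Over 36 pairs of groups these differences correlated between -0.311 and 0.406, over 0.1 in 12 pairs and under -0.1 in 10. Alternatives covered normalization, pseudocount, filter, variances, array weights, probe sets, arrays in the fit, weeks and each array left out.

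Genes were named by a rule: the 12 largest rises and falls not set aside, up to 6 for each other comparison (4 in each direction for the strain difference), up to 4 of each described list (8 for p53 targets), and the 10 genes by which array 1 of week 3 stood farthest above array 2. The members, lists and rule were chosen with earlier results of these data known. Named outside the rule, after their values were seen, were the cluster histones, the cytotoxic cell genes and those of small counts. The scripts were tested on simulated data.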

Additional observations from a re-analysis of the deposited data

Results flagged for a closer look

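The trend over weeks differed between NNK-treated and untreated C3H lungs in 1 gene, Saa3, by -4.45, by the test of the difference itself. Between NNK-treated C3H and NNK-treated A/J lungs it differed in 43 genes by the same kind of test. Among those named, the difference, C3H minus A/J, was 0.97 for Gja5, 1.37 for Arntl, 0.51 for Ablim3 and 0.69 for Akap12, and -1.47 for Hlf, -0.91 for Wee1, -0.96 for Per3 and -1.25 for Dbp. Groups of 2 arrays are too small for a search for single outlying samples.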

How the results depend on the processing

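The count of 170 genes was 114 to 250 with a pseudocount of 1, no normalization, dim genes kept, the 50th percentile as the filter, the mean of a gene's probe sets or the replicate block, while trended robust variances gave 339, array weights 52, all 36 arrays in the fit 60, the 8 NNK arrays alone 11 (14 with a straight line) and weeks 6, 9 and 12 only 2. Leaving out each array in turn gave 20 to 759 genes for the NNK trend, 0 to 58 for the untreated trend, 1 to 299 for the trend difference, 21 to 1407 for the F test and 12 to 267 for the strain difference. The split of 54 rises and 116 falls was 135 and 115 with the 50th percentile filter, 162 and 177 with trended robust variances and 108 and 136 with the replicate block. The untreated count of 18 was 8 without normalization, 2 without a filter, 29 with the 50th percentile filter, 42 with trended robust variances, 137 with array weights, 10 with the replicate block, 0 with all 36 arrays and 356 with week 0 added. The trend difference gave 0 genes with the 50th percentile filter, trended robust variances, all 36 arrays or weeks 6, 9 and 12 only. It gave 3 with untreated week 0 added, namely Saa3 (-4.76), Mir680-2 (1.16) and H2bc1 (-0.643). H2bc1 had been set aside by its untreated trend over weeks 3 to 12. The F test gave 211 genes without a filter, 1094 with the 50th percentile filter, 1205 with trended robust variances, 283 with array weights, 293 with all 36 arrays and 3 on the 8 arrays alone. The strain difference gave 72 genes with the 50th percentile filter and 71 with array weights. With an adjusted p for the untreated trend 9 genes were set aside in place of 108. The causes were not tested.

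Among the 52 genes followed across alternatives, 8 had the opposite sign with weeks 6, 9 and 12 only: Scel -0.0443, Prg4 0.0605, Alox15 0.281, Gapt 0.0601, Loxl1 0.0223, Tbc1d30 -0.0902, Hc -0.025 and Mmrn1 -0.334. Leaving out each array, the trend of Mmrn1 ran between -0.0172 and 0.0223 and that of Cxcl17 between -0.0991 and 0.0786, around 0. The replicate block, whose numbers were not taken to pair the arrays, gave 244 trend genes, 1 trend difference, 409 F test genes and 47 strain differences. List counts without array 1 of week 3 were chosen after seeing the data. With 2 arrays a group, single arrays limit every count.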

Other observations

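A chosen set of 9 genes of cytotoxic lymphocytes had trends of opposite sign in NNK-treated and untreated C3H lungs, with none of the NNK trends called. These genes (Gzma, Gzmb, Prf1, Ncr1, Klrd1, Eomes, Tbx21, Nkg7 and Ccl5, encoding granule proteases, perforin, NK cell receptors, transcription factors and a chemokine) were picked from the T and NK cell list after their values had been seen, so they are described without a test of the group. Their mean level was 8.71 and 9.07 at week 3, 9.11 and 8.87 at week 6, 9.01 and 9.25 at week 9, and 9.16 and 9.24 at week 12 with NNK, against 9.19 and 9.20, 9.03 and 8.80, 8.91 and 8.97, and 8.62 and 8.89 in untreated lungs. All 9 trends were positive with NNK, between 0.19 and 0.42, and all 9 were negative untreated, between -0.55 and -0.20. All 22 tested genes of the whole list had a positive NNK trend, while untreated 13 were negative and 9 positive, so of the 13 genes not chosen 9 were positive untreated. The difference between the trends lay between 0.42 and 0.89 and did not pass in any of the 9 genes (adjusted p between 0.419 and 0.598). Without array 1 of week 3 the NNK trends lay between 0.01 and 0.33.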
